A study of Mus musculus with 6 samples.

Results

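The genes described here carry cholesterol out of the liver and reshape lipoproteins: Abcg5, Abcg8, Abca1, Abcg1, Scarb1, Lcat, Pltp, Lipc and Mttp. They were taken from an array comparison of livers lacking the coactivator SRC-2 with wild-type livers, as every probe set annotated to exactly 1 of these 9 symbols. Of the 9 genes, 8 had such a probe set, and together they had 15 of the 45101 probe sets on the array. Lipc, which encodes hepatic lipase, had none and was not analysed here. The 2 groups were SRC-2 null and wild-type female mice on a C57 background, with 3 arrays each, numbered 1 to 3 in both genotypes. Every animal had been ovariectomized at 6 weeks of age and was killed under Avertin anesthesia 2 weeks later, so both groups lacked ovarian hormones. The liver was frozen, and total RNA was labelled with biotin. The labels give neither the allele nor the feeding state, and they do not say whether the arrays of a group come from separate animals. The p-values therefore rest on the spread among these 6 arrays, part or all of which may be technical. SRC-2, the product of Ncoa2, is a coactivator that nuclear receptors recruit to switch genes on.

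The liver disposes of cholesterol by turning it into bile acids, by secreting it into bile and by passing it to lipoproteins. ABCG5 and ABCG8 pair into 1 transporter that moves sterols across the canalicular membrane into bile. ABCA1 and ABCG1 pass cholesterol to apolipoprotein A-I and to high-density lipoprotein (HDL), LCAT esterifies it in plasma, PLTP and hepatic lipase remodel the particles, and SR-BI, the product of Scarb1, takes HDL cholesterol back up. MTTP loads lipid onto apolipoprotein B when very-low-density lipoprotein (VLDL) is made. The oxysterol receptors LXR are known activators of Abcg5, Abcg8, Abca1, Abcg1 and Pltp.

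Abcg5 and Abcg8 lie head to head on mouse chromosome 17 and are read in opposite directions. In RefSeq (GRCm38.p6) the start of Abcg5 on the minus strand is at 84683011, and the nearer of the 2 listed starts of Abcg8 on the plus strand is at 84683121. The 109 bases between them are shown because both genes share them as their nearest upstream sequence. The Abca1 sequence, 180 bases before its start on chromosome 4, is shown beside it as that of an exporter gene that did not pass the test. The first is chr17:84683012-84683120 on the plus strand, with capitals for the motif GATAA on either strand. The second is chr4:53159896-53160075 on the minus strand, with capitals for the E-box CACGTG and the TATA box TATAAA.
Abcg5 to Abcg8: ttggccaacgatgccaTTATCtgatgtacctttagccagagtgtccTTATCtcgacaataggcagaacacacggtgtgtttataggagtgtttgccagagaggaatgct
Abca1: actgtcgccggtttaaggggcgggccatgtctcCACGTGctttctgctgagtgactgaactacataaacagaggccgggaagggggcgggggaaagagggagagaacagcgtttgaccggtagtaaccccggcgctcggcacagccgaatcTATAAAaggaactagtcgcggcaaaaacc

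RefSeq promoter windows, 250 bases before to 50 after a start, were listed for 7 of the 9 genes, and the GATA factor motif GATAA, the nuclear receptor element AGGTCA, the TATA box TATAAA and the E-box CACGTG were searched in them on both strands. GATAA occurs 2 times between the Abcg5 and Abcg8 starts. The Abcg5 window and that of the nearer Abcg8 start overlap and hold the same 3 matches, while the window of the other Abcg8 start holds none. GATAA was also found 1 time in the Lcat window and 2 times in 1 of the 2 Lipc windows, and in no window of Pltp, Mttp or Abca1. Of 32851 windows of this length, 25.4% held GATAA and 0.938% held it 3 times or more. TATAAA was found at -31 from the nearer Abcg8 start, read on the strand opposite to Abcg8, and so at -84 in the Abcg5 window. It was also found at -29 in the Abca1 window and at 36, past the start, in that of Pltp (13.6% of all windows). CACGTG was found in the Abca1 window alone among the listed genes (7.15% of all windows). AGGTCA was found in 1 of the 2 Lipc windows and in no window of the other 6 genes (16.3% of all windows). These matches describe letters and are not evidence of binding.

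Values are log2 expression values, and each gene is represented by its probe set with the highest mean over the 6 arrays. A gene was called at an adjusted p under 0.05 in limma, a linear model with a shared estimate of the spread. Ncoa2 itself was lower in null liver, from 8.07 ± 0.41 to 5.63 ± 0.21 (SD over 3 arrays each; limma adjusted p = 0.000354). Array medians were between 4.17 and 4.24, and 11895 genes were bright enough to test. Replicate 3 of both genotypes stood apart from replicates 1 and 2. Deviations from the group means correlated at 0.51 between the 2 arrays numbered 3, and at 0.16 to 0.19 among the arrays numbered 1 and 2 across genotypes. They correlated at -0.31 to -0.28 between an array numbered 3 and one numbered 1 or 2. Deviations cancel out within a group, so these negative values follow in part from the positive ones.

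Transcripts of the canalicular exporter, of the HDL receptor and of the phospholipid transfer protein were lower in SRC-2 null liver. Of the 8 genes, 4 fell (Abcg5, Abcg8, Scarb1 and Pltp), none rose (0 at an unadjusted p under 0.05) and 4 did not pass (Abca1, Abcg1, Lcat and Mttp). Over all genes tested, 4.67% were called in either direction and 3.13% were called lower. With the replicate number as a block the same 4 genes fell, and 4.41% of all genes were called lower. The median log2 fold change, SRC-2 null against wild-type, was -0.33 over the 8 genes and 0.00 over all genes tested. It was below 0 for 7 of 8 genes, against 49.4% of all genes tested. The groups did not overlap for the 4 called genes, all lower in null liver, while 12.5% of all genes tested had null values entirely below the wild-type values.

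**Figure D1:**
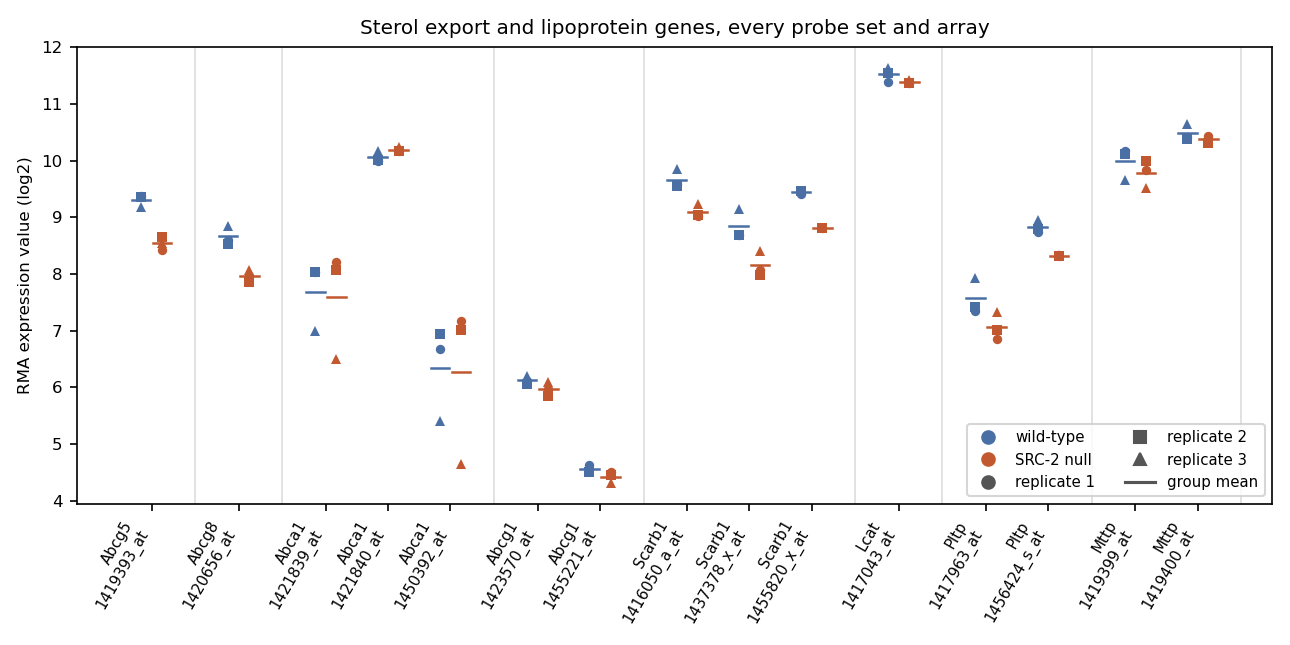
Log2 expression value of each of the 15 probe sets of 8 genes on the 6 arrays; blue marks are wild-type, orange marks SRC-2 null, the marker shape gives the replicate number and short lines are group means. The null arrays lie below every wild-type array for Abcg5, Abcg8, all 3 Scarb1 sets and both Pltp sets, while 2 of the Abca1 sets drop on replicate 3 of both genotypes.

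Abcg5, which encodes 1 subunit of the biliary sterol exporter, read 9.37, 9.35 and 9.18 on wild-type arrays 1 to 3 and 8.42, 8.66 and 8.54 on null arrays 1 to 3. Every null array was below every wild-type array. Abcg5 fell 1.69-fold (log2 fold change -0.76, SE 0.10, limma adjusted p = 0.00336). Within replicate numbers the null array was lower by -0.95, -0.69 and -0.64 on the log2 scale. The call was kept under each of the 17 alternative settings of the test by gene, with log2 fold changes between -0.82 and -0.70. In the fit of all single probe sets (adjusted p = 0.00909) it was lost without wild-type replicate 1 or 2 (adjusted p = 0.0524 and 0.0593).

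Abcg8, the other subunit, read 8.61, 8.53 and 8.85 in wild-type liver and 7.96, 7.85 and 8.06 in null liver. Its groups did not overlap either, and replicate 3 was the highest array in both genotypes. Abcg8 fell 1.63-fold (log2 fold change -0.70, SE 0.11, limma adjusted p = 0.00869). Within replicate numbers the differences were -0.65, -0.68 and -0.79, and the call was kept under all 17 settings of the test by gene (log2 fold changes from -0.77 to -0.61). In the fit of all single probe sets (adjusted p = 0.021) it was lost in 4 of the 6 fits without 1 array, those without replicate 1 or 2 of either genotype (adjusted p from 0.0531 to 0.101). Abcg5 and Abcg8 had 1 probe set each.

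The 2 subunit genes were then compared with each other. The Abcg5 value minus the Abcg8 value averaged 0.64 ± 0.26 over the wild-type arrays and 0.58 ± 0.19 over the null arrays (SD, n = 3). The genotype difference in it was -0.06 (SE 0.19, 95% confidence interval -0.58 to 0.47, two-sided exact permutation p = 0.9). The interval leaves room for unequal changes in either direction. With 3 arrays against 3 the smallest p such a test can give is 0.1.

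Abca1, which loads cholesterol onto apolipoprotein A-I, did not pass. Its brightest probe set, 1421840_at, read 10.00, 10.01 and 10.18 in wild-type and 10.17, 10.17 and 10.25 in null liver. These ranges overlapped, and the log2 fold change was 0.13 (SE 0.09, limma adjusted p = 0.511). With the mean of its 3 probe sets the log2 fold change turned to -0.01.

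The 2 dimmer Abca1 probe sets followed the replicate number, and neither passed the test for genotype. 1421839_at read 8.03, 8.03 and 7.00 in wild-type and 8.20, 8.07 and 6.50 in null liver. 1450392_at read 6.68, 6.94 and 5.40 in wild-type and 7.18, 7.00 and 4.65 in null liver. In both genotypes replicate 3 was thus the lowest array, by -1.03 and -1.63 for the first set and by -1.42 and -2.45 for the second, against the mean of replicates 1 and 2, while for 1421840_at it was the highest. Within replicates 1 and 2 the null array was higher for both sets (0.17 and 0.05 for 1421839_at, 0.49 and 0.06 for 1450392_at), and within replicate 3 it was lower (-0.49 and -0.75). In the fit of all single probe sets their limma adjusted p was 0.966 and 0.984.

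Array control probe sets for the ends of 2 housekeeping transcripts separated the same arrays. The 3′ minus the 5′ value for Gapdh was 0.48 and 0.50 on replicate 3 of wild-type and null. On replicates 1 and 2 it was 0.16 and 0.23 in wild-type and 0.07 and 0.08 in null liver. For beta-actin it was 1.42 and 1.38 on replicate 3. On replicates 1 and 2 it was 1.22 and 1.16 in wild-type and 1.10 and 1.04 in null liver. Within replicates 1 and 2 both controls were thus also higher in wild-type liver. A larger difference is a usual sign of shorter RNA or cDNA. Which part of the Abca1 transcript each set reads is not given in the sources used here, and the part of RNA quality in the Abca1 values was not tested.

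**Figure D2:**
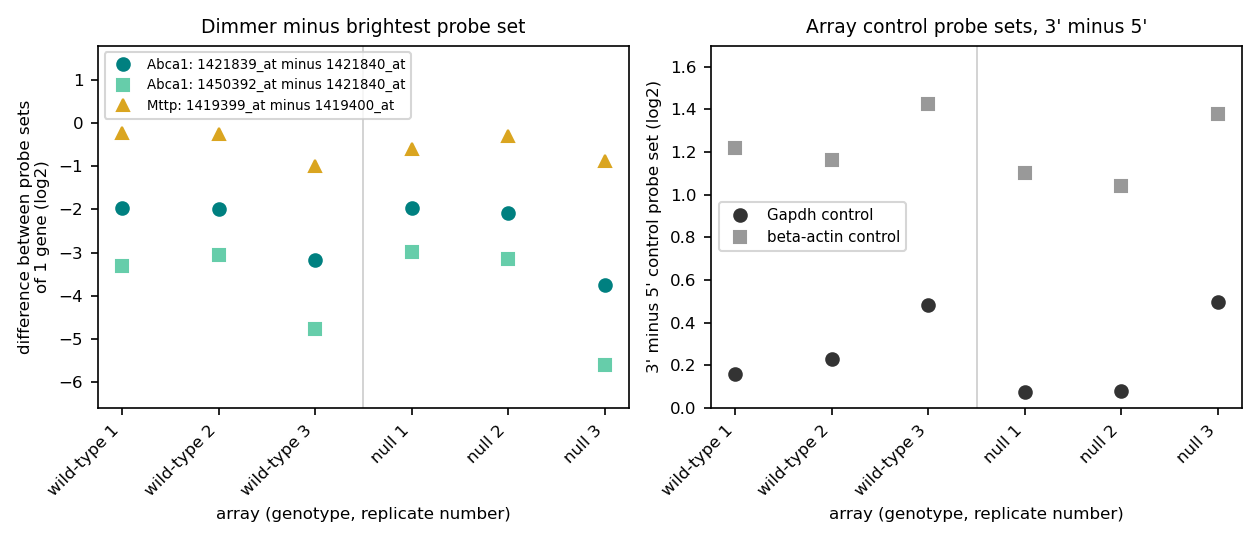
Left, the log2 value of a dimmer probe set minus that of the brightest probe set of the same gene, for Abca1 and Mttp, on each array; right, the 3′ minus the 5′ value of the Gapdh and beta-actin array controls. Replicate 3 of both genotypes has the lowest differences on the left (-3.18 to -5.60 for Abca1) and the highest on the right.

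Abcg1, which passes cholesterol to HDL and is also prominent in macrophages, did not pass. It read 6.10, 6.06 and 6.21 in wild-type and 5.96, 5.84 and 6.09 in null liver (log2 fold change -0.16, SE 0.09, limma adjusted p = 0.468). Null replicate 3 lay within the wild-type range. Its second set, 1455221_at, lay near the dim end of the tested range, between 4.31 and 4.63, with null values just below the wild-type ones, and was not called (limma adjusted p = 0.615).

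The change of the biliary pair was set against that of the HDL efflux pair. The mean of Abcg5 and Abcg8 minus the mean of Abca1 and Abcg1 averaged 0.89 ± 0.06 over the wild-type arrays and 0.17 ± 0.07 over the null arrays (SD, n = 3), with no overlap. Each gene entered by its brightest probe set, so the dimmer Abca1 sets were left out. The genotype difference was -0.72 (SE 0.05, 95% confidence interval -0.87 to -0.57). Abcg5 and Abcg8 were called and Abca1 and Abcg1 were not, so this gap restates those calls and is no separate support. The two-sided exact permutation p was 0.1, the smallest that 3 arrays against 3 can give, so this test could not have passed 0.05.

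Scarb1, the HDL receptor gene, had 3 probe sets, and none of them overlapped between genotypes. The brightest, 1416050_a_at, read 9.58, 9.56 and 9.84 in wild-type and 9.03, 9.05 and 9.23 in null liver. Scarb1 fell 1.47-fold by this set (log2 fold change -0.56, SE 0.11, limma adjusted p = 0.0238). Leaving out replicate 1 or 2 of either genotype ended the call (adjusted p = 0.0562 and 0.0582 for the wild-type arrays and 0.0983 and 0.101 for the null arrays), with log2 fold changes from -0.62 to -0.47 over the 6 fits that each left out 1 array.

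The other Scarb1 sets, whose names end in _x_at and which may detect related transcripts too, gave similar sizes. 1455820_x_at varied little, at 9.42, 9.46 and 9.47 in wild-type and 8.81, 8.81 and 8.81 in null liver, a log2 fold change of -0.64 (SE 0.08). It was called in the fit of all single probe sets (limma adjusted p = 0.00591), and again without each array in turn. 1437378_x_at read 8.68, 8.69 and 9.15 in wild-type and 8.07, 7.99 and 8.41 in null liver, with replicate 3 highest in both. Its log2 fold change was -0.68 (SE 0.17, limma adjusted p = 0.1). With the replicate number as a block, the adjusted p was 0.00873 for this set and 0.016 for 1416050_a_at, which had 0.0507 without the block in the same probe set test.

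Lcat, the enzyme that esterifies cholesterol on HDL, read 11.40, 11.54 and 11.64 in wild-type and 11.37, 11.38 and 11.42 in null liver. The highest null array lay just above the lowest wild-type array. The log2 fold change was -0.14 (SE 0.09, limma adjusted p = 0.506), and Lcat was not called under any of the 17 settings.

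Pltp, which transfers phospholipid between lipoproteins, read 8.74, 8.79 and 8.95 in wild-type and 8.31, 8.32 and 8.33 in null liver by its brightest set, 1456424_s_at. The groups were well apart, and the null arrays differed by less than the wild-type arrays did. Pltp fell 1.42-fold (log2 fold change -0.51, SE 0.09, limma adjusted p = 0.0148). Leaving out replicate 2 of either genotype (adjusted p = 0.0609 for wild-type, 0.0661 for null) or replicate 1 of the null group (adjusted p = 0.06) ended the call, as did the use of replicates 1 and 2 only (adjusted p = 0.0624). In the fit of all single probe sets (adjusted p = 0.0333) the call was lost in each of the 6 fits without 1 array (adjusted p from 0.0785 to 0.135). Pltp is expressed in macrophages as well as hepatocytes, and the macrophage markers described later fell too. The part of macrophages in the Pltp values was not tested.

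The second Pltp set, 1417963_at, read 7.35, 7.42 and 7.94 in wild-type and 6.84, 7.01 and 7.33 in null liver. The highest null array, replicate 3, almost met the lowest wild-type array, replicate 1. Its log2 fold change was the same as that of the brighter set to 2 decimals (-0.51, SE 0.19), but it was not called (limma adjusted p = 0.284). With the replicate number as a block the set was called (adjusted p = 0.0261), its null array being lower by -0.51, -0.41 and -0.60 within replicates 1 to 3.

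Mttp, which loads lipid onto apolipoprotein B, did not pass. Its brightest set, 1419400_at, read 10.41, 10.39 and 10.66 in wild-type and 10.43, 10.31 and 10.40 in null liver, with overlap (log2 fold change -0.10, SE 0.10, limma adjusted p = 0.676). Its other set, 1419399_at, read 10.17, 10.13 and 9.66 in wild-type and 9.83, 10.00 and 9.52 in null liver. That set was lowest on replicate 3 in both genotypes, as the 2 dimmer Abca1 sets were, and was not called (limma adjusted p = 0.694).

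In the fit of all single probe sets, 4 of the 15 were called lower and none was called higher, while 1.79% of the 19634 probe sets tested were called lower. The count was 1 of 15 without wild-type replicate 1 or 2, 2 without null replicate 1 or 2 and 3 without replicate 3 of either genotype, and 1455820_x_at of Scarb1 was the one called in all 6 of these fits. With the replicate number as a block, 7 of 15 were called lower, against 2.77%, and these were all the sets of Abcg5, Abcg8, Scarb1 and Pltp. None of those 7 sets overlapped between genotypes. Their null array was thus bound to be below the wild-type array of the same number in all 21 comparisons, by -0.95 to -0.41. For the 8 sets of Abca1, Abcg1, Lcat and Mttp the null array was below in 16 of 24, with differences from -0.75 to 0.49. The sets were split by the calls of their genes, so this contrast restates the calls and is no separate support. Null values lay entirely below wild-type values for 8 of the 15 sets, against 10.8% of all probe sets tested. The sets of 1 gene read the same transcripts and are not independent.

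**Figure D3:**
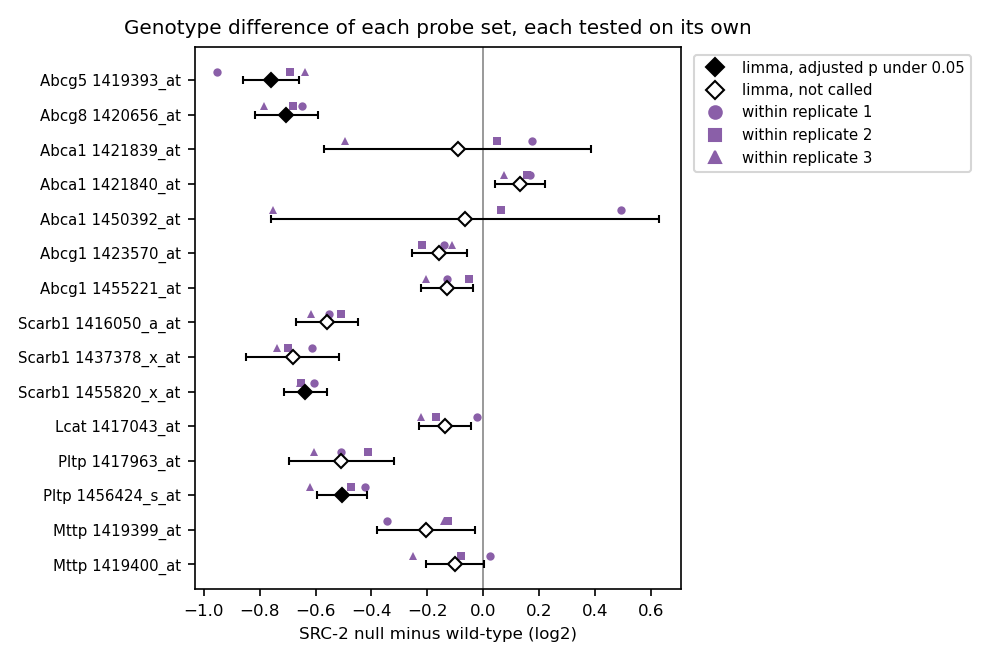
SRC-2 null minus wild-type difference (log2) of each probe set when tested on its own; diamonds are limma estimates with their standard errors, filled where the adjusted p was under 0.05, and purple marks are the differences within each replicate number. The 7 sets of Abcg5, Abcg8, Scarb1 and Pltp lie between -0.76 and -0.51 with every within-replicate difference below 0, and 2 Abca1 sets have the widest errors.

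Other genes of sterol and lipoprotein transport were counted in lists. The counts stand beside 3.13% of all genes tested called lower and 4.67% called in either direction. The lists were not tested as sets, and a count of 1 gene is not read as a result about its list. Of 13 measured LXR targets outside the 9 genes, 3 fell, 2 rose and 8 did not pass, with a median log2 fold change of -0.01. Srebf1 and Mlxipl, transcription factors of lipid synthesis, and Fasn, fatty acid synthase, fell, with log2 fold changes of -0.96, -0.62 and -0.83. Lpl, lipoprotein lipase, and Apoc2, its activator protein, rose, with log2 fold changes of 0.90 and 0.48. The targets thus went in both directions. Apoc2 lost its call in 4 of the 6 fits without 1 array (adjusted p up to 0.082), and Mlxipl without wild-type replicate 2 or null replicate 1 (adjusted p up to 0.0528).

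Among 16 receptors and regulators of these genes, 1 fell, none rose (0 at an unadjusted p under 0.05 and a value above 0) and 15 did not pass, with a median of -0.09. The one that fell was Nr0b2, which encodes the repressor SHP (log2 fold change -0.95, limma adjusted p = 0.00127). The LXR gene Nr1h3 had a log2 fold change of 0.07 and Rxra, its partner receptor, -0.01. The other LXR gene, Nr1h2, and the corepressor gene Ncor1 were in this list but were not tested. Nr5a2 and Hnf4a, receptors known to act on Abcg5 and Abcg8, had values of -0.11 and -0.06, and neither passed. Nr1i2, the xenobiotic receptor PXR, was at -0.29, and the corepressor gene Nrip1 at -0.35. With the replicate block Nrip1 was called lower (adjusted p = 0.0457).

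Of 6 canalicular transporters outside the 9 genes, 2 fell, 1 rose and 3 did not pass. Abcb11, the bile salt export pump, had a log2 fold change of -0.91 (SE 0.08, limma adjusted p = 0.000491). Abcb4, which delivers the phospholipid of bile, fell by a smaller amount, -0.35 (SE 0.08, limma adjusted p = 0.0402). The Abcb4 call was lost with no filter on dim genes (adjusted p = 0.0693) and in all 6 fits without 1 array (adjusted p from 0.069 to 0.158). Abcg2, which encodes a transporter of drugs and urate in the same ABCG family, rose, with 0.60 (SE 0.09, limma adjusted p = 0.00725). It was also the only 1 called of 10 other ABCA and ABCG transporters, whose median was -0.07. Abca2 and Abca3 had values of -0.35 and -0.25 and did not pass.

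Among 14 genes of a list of HDL proteins, which also held Pdzk1, 1 rose, 2 fell and 11 did not pass, and the median was -0.01. Apoa4 rose (log2 fold change 1.91), and Saa4 and Apom, carried on HDL, fell (-0.68 and -0.41). Apom lost its call in 5 of the 6 fits without 1 array, all but that without wild-type replicate 3 (adjusted p up to 0.12). Apoa1, which encodes the main HDL protein, had a value of 0.02, and Apoa2 had a limma adjusted p of 0.999. Pdzk1, whose product stabilises SR-BI in the liver, had a value of 0.03 beside the fall of Scarb1, and did not pass.

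Limma called none of 12 genes of VLDL assembly, and an unadjusted p under 0.05 was found for 0 of them. Their log2 fold changes lay between -0.17 for Apob, whose protein is the backbone of the particle, and 0.22 for Sort1, a sorting receptor. P4hb, the subunit that pairs with MTTP, had 0.09.

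Lipg, which encodes endothelial lipase, a relative of hepatic lipase that acts on HDL phospholipid, had the largest fall of 10 genes of lipases, their regulators and lipoprotein receptors. It read 7.40, 7.59 and 8.41 in wild-type and 5.89, 5.95 and 6.70 in null liver, highest on replicate 3 in both, a 3.07-fold fall (log2 fold change -1.62, SE 0.29, limma adjusted p = 0.0185). Angptl4, an inhibitor of lipoprotein lipase, was the other one that fell (-0.39), Lpl rose, and 7 did not pass. The Lipg call was lost without null replicate 1 or 2 (adjusted p up to 0.091). That of Angptl4 was lost with no filter on dim genes (adjusted p = 0.0597) and in 5 of the 6 fits without 1 array, all but that without null replicate 3 (adjusted p up to 0.146). Lrp1, a remnant receptor, had a value of -0.27 (limma adjusted p = 0.197). Among 11 tested genes of a list for intracellular sterol transport and esterification, 1 fell, Gramd1c, a sterol transfer protein of the Aster family (log2 fold change -0.86, limma adjusted p = 0.00489). Soat1 and Soat2, the esterification enzyme genes of that list, were not tested, so these values do not speak to esterification. Npc2, a lysosomal cholesterol carrier, had a value of -0.33 (limma adjusted p = 0.065).

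**Figure D4:**
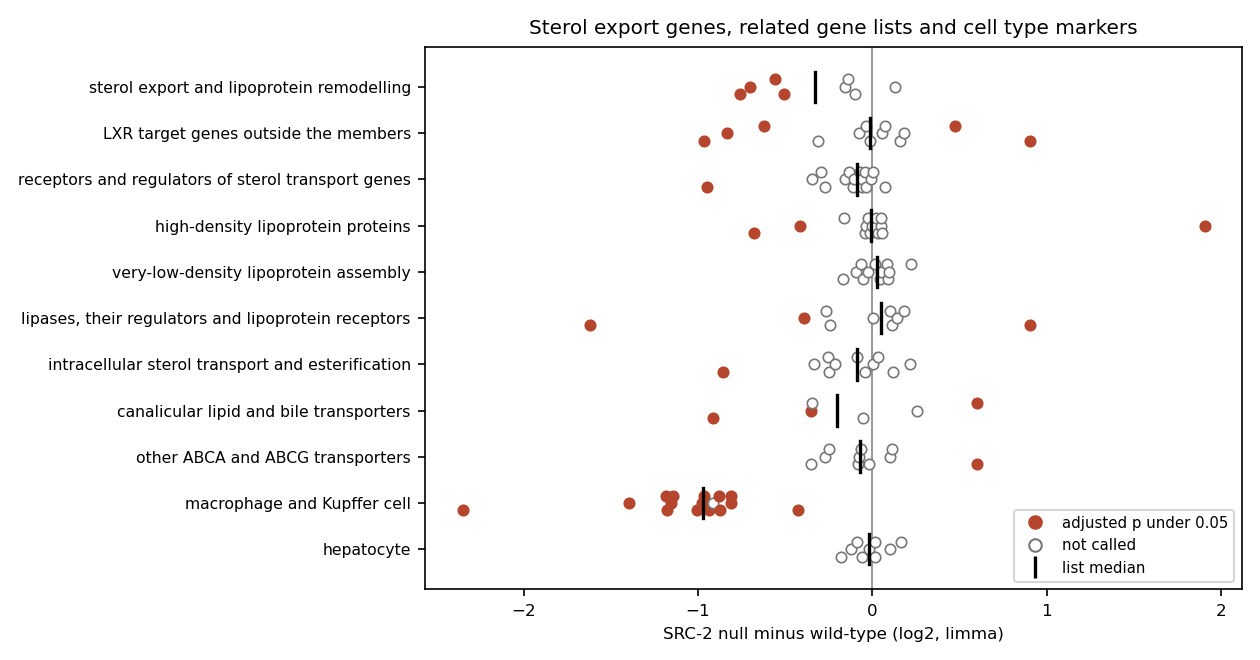
Log2 fold change (SRC-2 null minus wild-type, limma) of each tested gene in the lists named on the vertical axis; filled points have an adjusted p under 0.05 and black bars are list medians. The sterol export and lipoprotein remodelling genes have a median of -0.33, the related lists have medians between -0.20 and 0.05, the macrophage markers -0.97 and the hepatocyte markers -0.02.

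Macrophage markers were lower in the same null livers. Over all genes tested, 3.13% were called lower and 4.67% in either direction. Of 16 markers of macrophages and Kupffer cells tested, 15 fell, with a median log2 fold change of -0.97. Their summed level on the linear scale was 6342 to 6634 on wild-type arrays and 3002 to 3231 on null arrays. Fewer cells of a type and less RNA per cell cannot be told apart in whole liver. Of 9 hepatocyte markers none was called (0 at an unadjusted p under 0.05), with a median of -0.02 and summed levels of 90382 to 95620 in wild-type and 90042 to 96611 in null liver. None of 8 endothelial markers was called in limma (1 at an unadjusted p under 0.05, median -0.02). With the replicate number as a block, 1 of them, Lyve1, was called higher (log2 fold change 0.56, adjusted p = 0.0145, against 0.0662 without the block). Markers of other cell types moved as well. Of 5 B and plasma cell markers tested 3 fell (median log2 fold change -1.38), with summed levels of 1722 to 2120 on wild-type arrays and 225 to 274 on null arrays. With the replicate block 4 of the 5 were called lower, Cd79a (-0.62) being added with an adjusted p of 0.00598 against 0.218 without it. Of 3 T and NK cell markers tested 2 fell, Nkg7 and Ccl5 (log2 fold changes -0.78 and -1.05, list median -0.78). The T cell marker Cd3e did not pass (-0.05, limma adjusted p = 0.889), and Cd3g and Klrb1c were not tested. Of 2 adipocyte markers tested 1 rose, Fabp4 (log2 fold change 1.73), and Retn did not pass (0.30). Summed levels of these markers were 105 to 139 in wild-type and 313 to 350 in null liver. The other markers of that list, Adipoq, Plin1, Lep and Cfd, were not tested. Of 3 cholangiocyte markers tested 1 fell, Krt19 (log2 fold change -0.48), while the list median was 0.18. The Krt19 call was lost without wild-type replicate 2 or null replicate 1 (limma adjusted p up to 0.0762). Epcam (0.26) and Sox9 (0.18) did not pass. Limma called none of 7 stellate cell markers (1 at an unadjusted p under 0.05). The part of these cell types in the values of the 9 genes and of Lpl was not tested. The part of macrophages in the values of Pltp, Abca1, Abcg1 and Lipg was not tested, nor was their part in those of Abcg5, Abcg8 and Scarb1.

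The 6 genes whose profiles over the 6 arrays were most like the mean profile of Abcg5 and Abcg8 were Tmsb4x, Fcna, Sirpa, Lect2, Gbp7 and Trp53inp1. Likeness was measured as the root mean square distance between values centred on each gene's own mean, and ranged from 0.03 to 0.05 on the log2 scale. Abcg5 and Abcg8 themselves each lay 0.10 from that mean, equally far because it is the mean of these 2 genes. Scarb1 and Pltp lay 0.12 and 0.13 from it and Abca1 0.43. Fcna encodes ficolin A, Sirpa an inhibitory receptor of myeloid cells, Tmsb4x an actin-binding peptide, and Lect2 a protein secreted by hepatocytes. Their log2 fold changes were -0.73, -0.77, -0.76 and -0.77, and those of Gbp7 and Trp53inp1 were -0.79 and -0.75. The 6 genes were picked by likeness on the same arrays, so values near those of Abcg5 and Abcg8 follow from the choice.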

How the data were processed

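The authors deposited log2 expression values per probe set, made with RMA per the submitters' processing notes. No RMA version, chip description or genome build is stated in the sources used here. RMA normalizes all arrays together and compresses folds at the dim end. Groups came from the labels, and the number of arrays (3 per genotype) limits the precision. Symbols came from the platform annotation, which can be old.

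Among 34958 probe sets with exactly 1 symbol, the brightest on average stood for each of 18194 genes. The 11895 genes averaging at least 4.21, the median over all probe sets, were fitted in limma 3.58.1 (R 4.3.3; lmFit and eBayes, genotype only, two-sided), with Benjamini-Hochberg adjustment over all of them. All 8 measured genes and all 15 of their probe sets passed the filter. Other probe sets of a gene were tested in a fit of 19634 single-symbol probe sets. Promoters were RefSeq's (GRCm38.p6). The procedure was tested on simulated data with independent noise on each array. Those data held no deviation shared by arrays of the same replicate number, so the test does not speak to one. Figures used matplotlib 3.10.9.

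Deviations of arrays with the same replicate number correlated at 0.16, 0.17 and 0.51, and the number was also fitted as a block. Arrays numbered 1 and 2 correlated slightly more across numbers (0.18 and 0.19). The number thus set apart only replicate 3 and showed no pairing of the arrays numbered 1 and 2. No pair of arrays held identical values.

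Named were all 9 genes, the up to 4 list members with the smallest p, called ones where 5 or fewer, and the 6 nearest profiles; Nr1h3, Rxra, Nr5a2, Hnf4a, Apoa1, Apoa2, Pdzk1, P4hb and Apob were named outside this order for their roles. The genes and lists were chosen with earlier results of these data known.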

Additional observations from a re-analysis of the deposited data

How the results depend on the processing

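Across 17 settings, 125 of the log2 fold changes of single genes kept their direction and side of the threshold, 9 lost a call and 1 turned sign, that of Abca1 with the mean of its probe sets (-0.0085). Abcg1 was too dim for the stricter filter and has no value there. Leaving out 1 array at a time gave 2 to 4 genes changed, all lower, and 0 higher, and 275 to 438 genes changed over all genes tested. The number over all genes, 556, was 362 with each probe set tested on its own, 985 with array weights, 983 with replicate 3 against replicates 1 and 2 as a block and 329 with replicates 1 and 2 only. The last 2 were chosen after seeing the data. With the replicate block 832 genes were called, and 4 of the 8 genes fell, as without it. In the related lists, the block gave 2 lower receptors and regulators, and no filter on dim genes gave 1 lower lipase or receptor gene (Angptl4 lost) and 1 lower canalicular transporter (Abcb4 lost). Leaving out 1 array at a time, also tried on these lists after seeing the data, gave 1 to 2 higher LXR targets, 1 to 2 lower HDL proteins, 0 to 2 lower lipase or receptor genes and 1 lower canalicular transporter in each fit. These counts differ because the fits hold other numbers of genes or arrays, or other estimates of the spread; beyond that, the cause was not tested.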
